A study of Rattus norvegicus with 9 samples.

Results

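Expression of 7 astrocyte genes of glutamate uptake, glutamine and related amino acid handling was followed in 9 samples of rat spinal cord. The genes were taken by symbol from a table of 34890 loci, namely the carriers Slc1a2, Slc1a3, Slc1a4 and Slc7a10, the enzymes Glul and Glud1, and the glutamine carrier Slc38a3, and all 7 were found in it, each at a single locus. They were chosen by measured values, namely their lower TPM in PLM than in SNI in these same samples, so that difference is described here and carries no test. RNA came from the L3-L6 cord of Sprague Dawley rats labelled WT, on the side of the operation, in 3 groups of 3 samples. JA rats had a sham operation and were fed saline. SNI rats had a spared nerve injury, in which branches of the sciatic nerve are tied and cut while the sural branch is left, and were also fed saline. PLM rats had the same injury and were fed paeoniflorin and liquiritin, which are plant glycosides, at 20.65 mg/ml paeoniflorin. For liquiritin the labels give 3.98, 3.99 and 3.100 mg/ml in PLM replicates 1, 2 and 3, whereas the methods give a single dose. Dosing lasted 21 days in every group, and a sham group on the drugs was not analysed here. The age of the rats was not given in the sources used here. Values are TPM, a share of all transcripts corrected for transcript length with the same sum in all samples, so levels of different genes can be set side by side but read depth is unknown.

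Glutamate released at synapses is cleared mainly by astrocytes. The sodium-driven carriers GLT-1 (Slc1a2) and GLAST (Slc1a3) bring it into the cell, glutamine synthetase (Glul) joins it with ammonia to glutamine, and SNAT3 (Slc38a3) lets glutamine out for neurons to take up. Glutamate dehydrogenase (Glud1) instead feeds glutamate into the mitochondrial citric acid cycle. ASCT1 (Slc1a4) and Asc-1 (Slc7a10) move small neutral amino acids such as serine rather than glutamate. In the dorsal horn, where pain fibres end, uptake by these carriers limits how long released glutamate acts.

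Sequences upstream of the start of transcription were read for 6 of the 7 genes in 10 windows (RefSeq, build GRCr8), with none for Slc38a3. A single window is shown for each of 4 genes, since Slc1a2 and Slc7a10 were each other's nearest members in pattern over the samples, while Slc1a3 and Glul stood for the other patterns. Each holds the 250 bases before the start, 5′ to 3′ on the strand of the gene. They lie at chr3:109459859-109460108 (plus strand, Slc1a2), chr1:96965872-96966121 (plus strand, Slc7a10), chr2:59557798-59558047 (minus strand, Slc1a3) and chr13:68575816-68576065 (plus strand, Glul). Capitals mark matches, on either strand, to the motifs searched.
Slc1a2: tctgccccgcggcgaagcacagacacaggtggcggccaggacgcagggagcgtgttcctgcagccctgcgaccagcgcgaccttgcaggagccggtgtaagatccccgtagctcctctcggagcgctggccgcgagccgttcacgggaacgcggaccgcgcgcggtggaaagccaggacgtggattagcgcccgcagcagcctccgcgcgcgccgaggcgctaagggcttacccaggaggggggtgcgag
Slc7a10: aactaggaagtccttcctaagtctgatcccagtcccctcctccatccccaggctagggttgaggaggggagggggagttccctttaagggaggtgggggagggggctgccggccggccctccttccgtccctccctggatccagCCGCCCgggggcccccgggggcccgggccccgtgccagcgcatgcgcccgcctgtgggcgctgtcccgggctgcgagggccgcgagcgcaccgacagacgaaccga
Slc1a3: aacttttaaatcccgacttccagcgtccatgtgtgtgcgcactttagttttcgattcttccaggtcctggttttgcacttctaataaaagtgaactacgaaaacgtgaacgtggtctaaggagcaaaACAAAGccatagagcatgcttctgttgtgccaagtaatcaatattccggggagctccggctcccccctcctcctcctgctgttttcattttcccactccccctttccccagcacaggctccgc
Glul: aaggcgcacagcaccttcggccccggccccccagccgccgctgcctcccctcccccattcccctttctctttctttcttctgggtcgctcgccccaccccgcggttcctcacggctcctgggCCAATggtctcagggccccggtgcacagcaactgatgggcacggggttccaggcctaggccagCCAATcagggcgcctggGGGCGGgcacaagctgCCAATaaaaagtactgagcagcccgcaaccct
The Glul window held 3 CCAAT boxes (CCAAT), beginning at positions -128, -65 and -32 from the start, and a GC box (GGGCGG) beginning at -48. Slc7a10 had a GC box on the opposite strand, and Slc1a3 had the letters ACAAAG of a SOX motif beginning at -123. No motif searched was found in either window of Slc1a2. Of 33469 windows of the same length, 34.02% held CCAAT, 30.5% GGGCGG and 16.3% ACAAAG. In the windows not shown, Glud1 had GC boxes and Slc1a4 had a CCAAT box and an E-box (CACGTG, 5.59% of all windows). The other Glul window had a GC box and, on the opposite strand, a CCAAT box, and the other Slc1a3 windows also held ACAAAG. The letters of TATA, CRE, AP-1, STAT, NF-kB, NFI and glucocorticoid response element motifs were in none of the 10 windows. The windows of Slc1a2 and Slc7a10 shown were 71.2% and 72.4% G and C, that of Glul 67.2% and that of Slc1a3 49.2%, against a median of 51.2% over all windows. The table gives 1 value per gene, so which start was used was not measured.

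Slc1a2 (ENSRNOG00000005479) was at 42.72, 24.65 and 10.22 TPM in JA replicates 1, 2 and 3. The SNI samples had 42.96, 38.62 and 39.16 TPM, and the PLM samples 12.35, 9.54 and 7.68 TPM. The highest PLM sample was thus below the lowest SNI sample, while the JA samples reached from the SNI level down into the PLM range. Slc1a3 (ENSRNOG00000016163), the other glutamate carrier, was at 47.45, 36.17 and 26.10 TPM in JA, 50.12, 53.24 and 41.43 TPM in SNI and 20.99, 20.64 and 22.41 TPM in PLM. Its PLM samples lay below all others, and its JA samples spread over less than those of Slc1a2, with a highest to lowest ratio of 1.82 against 4.18.

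The neutral amino acid carriers split in the same way. Slc7a10 (ENSRNOG00000010938), which also exchanges D-serine, was at 41.68, 24.53 and 11.52 TPM in JA, 47.99, 40.93 and 34.09 TPM in SNI and 15.15, 13.47 and 7.51 TPM in PLM. As for Slc1a2, JA replicate 1 sat among the SNI samples and JA replicate 3 among the PLM samples. Slc1a4 (ENSRNOG00000005248), the least abundant of the 7, was at 8.43, 6.44 and 5.12 TPM in JA, 9.82, 9.16 and 7.80 TPM in SNI and 4.53, 4.09 and 4.59 TPM in PLM. All its PLM samples were below all its JA and SNI samples.

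Glul (ENSRNOG00000049560), glutamine synthetase, was by far the most abundant member, at 1140.40, 1179.57 and 798.76 TPM in JA, 1250.40, 1199.24 and 1242.80 TPM in SNI and 845.85, 758.80 and 853.34 TPM in PLM. As deposited, it was the only member with all SNI samples above all JA samples. Glud1 (ENSRNOG00000057367) was at 270.58, 239.06 and 150.09 TPM in JA, 293.93, 282.12 and 251.80 TPM in SNI and 156.85, 138.16 and 137.25 TPM in PLM. For both enzymes, JA replicate 3 fell within the range of the PLM samples. Slc38a3 (ENSRNOG00000016827), the glutamine exporter, was at 46.30, 45.98 and 24.27 TPM in JA, 39.58, 37.37 and 37.77 TPM in SNI and 24.63, 26.93 and 24.72 TPM in PLM. It differed from the rest in that JA replicates 1 and 2 were above all SNI samples.

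**Figure D1:**
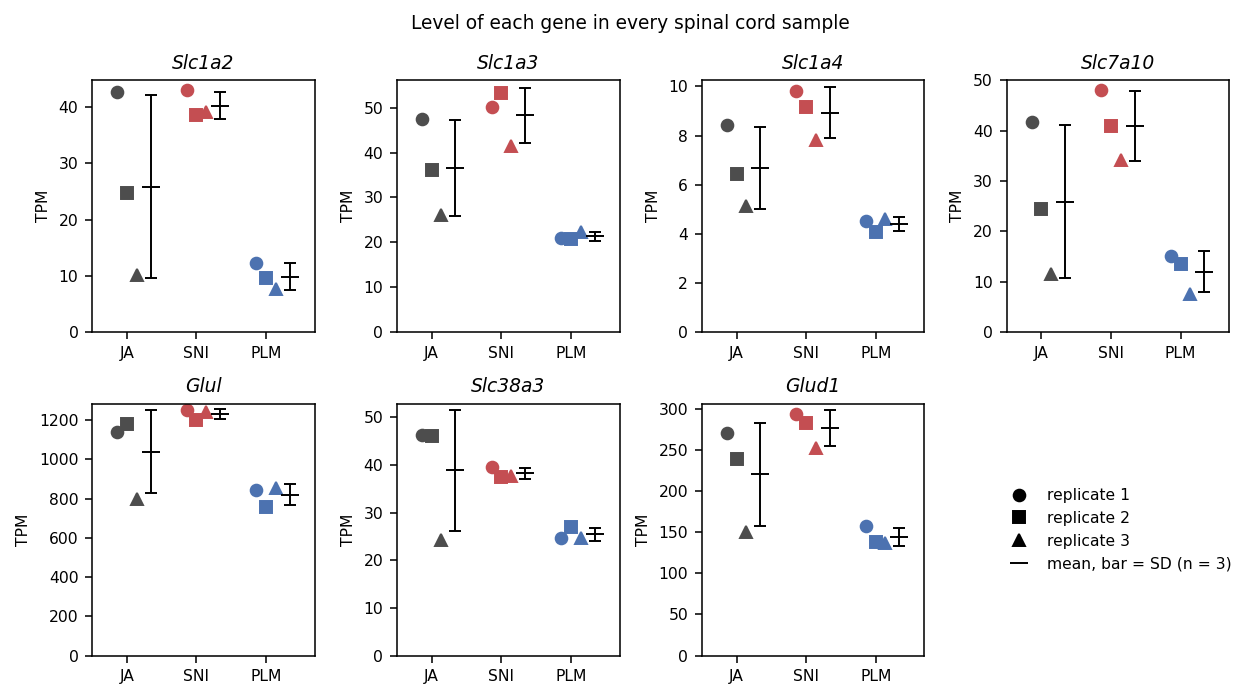
TPM of each of the 7 genes (vertical axis, a scale for each gene) in JA, SNI and PLM. Points are samples, with the shape giving the replicate number, and the bar is the mean ± SD (n = 3). PLM samples lie below SNI samples for every gene, and JA samples spread between or across them, from 10.22 to 42.72 TPM for Slc1a2.

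By mean level in SNI the order was Glul (1231 ± 27.6 TPM), Glud1 (276 ± 21.7), Slc1a3 (48.3 ± 6.12), Slc7a10 (41.0 ± 6.95), Slc1a2 (40.2 ± 2.37), Slc38a3 (38.2 ± 1.18) and Slc1a4 (8.93 ± 1.03; SD, n = 3 each). The sample values of Slc1a3, Slc7a10 and Slc1a2 overlapped, as did those of Slc7a10, Slc1a2 and Slc38a3. In PLM the order among these 4 was Slc38a3 (25.4 ± 1.303 TPM), Slc1a3 (21.3 ± 0.937), Slc7a10 (12.04 ± 4.01) and Slc1a2 (9.86 ± 2.35), and only the samples of the last pair overlapped. In JA the means of Slc38a3 (38.9 ± 12.6 TPM), Slc1a3 (36.6 ± 10.7), Slc7a10 (25.9 ± 15.1) and Slc1a2 (25.9 ± 16.3) were all within the spread of one another. Those of Glul (1040 ± 209), Glud1 (219.9 ± 62.5) and Slc1a4 (6.66 ± 1.67) kept their places.

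The JA samples spread much more in these genes than the injured samples did. The SD of log2(TPM + 1) over the JA samples had a median of 0.45 for the 7 genes, from 0.31 to 0.99, where the median of all 15503 loci tested was 0.18. In SNI the median for the 7 genes was 0.12 (0.03 to 0.24) against 0.14 for all loci, and in PLM 0.09 (0.06 to 0.49) against 0.12. On centred values the median for the 7 genes was 0.37 against 0.16 in JA, 0.09 against 0.13 in SNI and 0.12 against 0.11 in PLM. JA replicate 3 was the lowest JA sample for 7 of 7 members, as it was for 48.9% of all loci as deposited and 33.5% after each sample was centred on its median. Compared with the mean of JA replicates 1 and 2, this sample was lower by a median of -0.76 log2 over the members (-1.58 to -0.45) and -0.11 over all loci. Beside this, its mean log2 level of 8 Schwann cell markers, which mark peripheral nerve and nerve roots, was the highest of the 9 samples at 7.20, while over the other samples it ranged from 2.62 to 6.48. The 20 astrocyte markers had a like spread, with mean log2 levels of 7.22, 6.81 and 6.07 in JA replicates 1, 2 and 3 and an SD of 0.58 against 0.13 in SNI and 0.14 in PLM. The part of nerve root or astrocyte content in the members' levels was not tested. The members' differences from JA are given below with and without replicate 3.

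In PLM versus SNI, which chose the genes, 7 of 7 members were lower, as were 85.0% of all loci. The ratio of SNI to PLM mean TPM was 4.08 for Slc1a2, 3.405 for Slc7a10, 2.26 for Slc1a3, 2.03 for Slc1a4, 1.92 for Glud1, 1.502 for Glul and 1.504 for Slc38a3. As a log2 difference of TPM + 1, in which low genes appear to differ less than they do, PLM minus SNI was -1.95 (SE 0.16) for Slc1a2 and -1.73 (SE 0.26) for Slc7a10. Slc1a3 was at -1.13 (SE 0.10), Glud1 at -0.93 (SE 0.08) and Slc1a4 at -0.87 (SE 0.10). Glul, at -0.59 (SE 0.06), and Slc38a3, at -0.57 (SE 0.06), differed least. Both glutamate carriers and Slc7a10 thus had the 3 largest differences among the 7, and the genes that make and export glutamine the smallest. The median of all 15474 loci in this comparison was -0.21, which centring each sample on its median brought to 0.04. On centred values the members were at -1.70 (SE 0.18) for Slc1a2, -1.48 (SE 0.27) for Slc7a10, -0.89 (SE 0.09) for Slc1a3, -0.69 (SE 0.10) for Glud1, -0.63 (SE 0.10) for Slc1a4, -0.34 (SE 0.08) for Glul and -0.32 (SE 0.06) for Slc38a3. The order of the members was the same, and 42.4% of loci were below 0.

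Over all loci, limma called 13.6% lower in PLM as deposited (Benjamini-Hochberg adjusted p under 0.05) and 0.685% on centred values. Among these were 7 of 7 members as deposited and 3 of 7 (Slc1a2, Slc1a3 and Glud1) centred, and neither count is a test of the members, since the same difference chose them. The 3 PLM values lay under the 3 SNI values for 7 of 7 members on both scales, as for 41.9% of loci as deposited and 9.73% centred. The 13 mitochondrial protein genes took 31.3 to 32.8% of all TPM in PLM, 23.7 to 26.1% in SNI and 25.3 to 32.8% in JA. This share moves with the level of all other genes in a TPM table, and its part in the members' difference was not tested beyond rescaling without these genes. After that rescaling all 7 members remained lower in PLM.

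**Figure D2:**
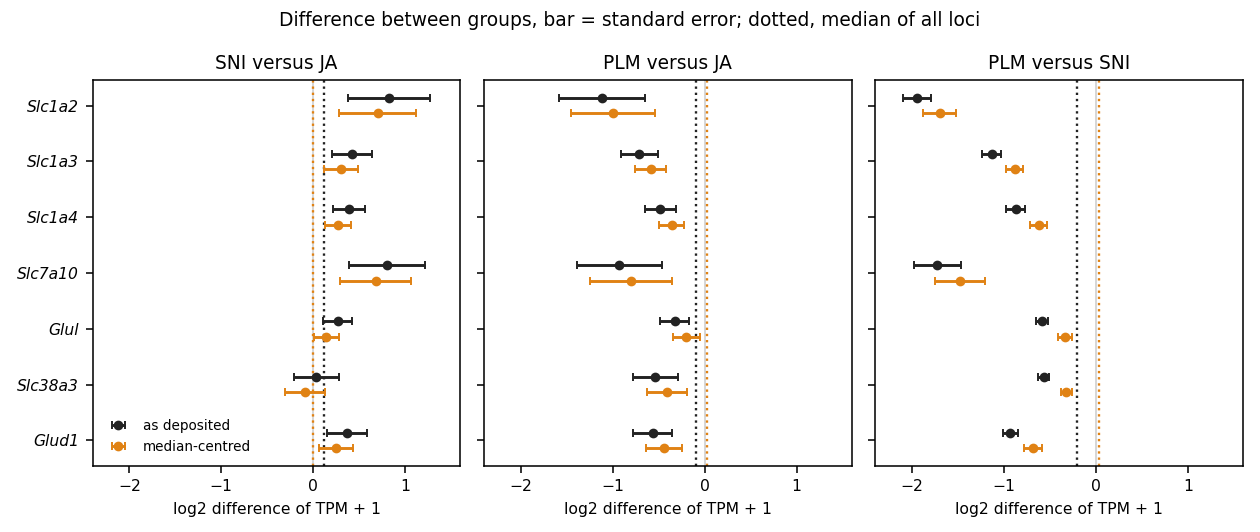
Difference in mean log2(TPM + 1) for each gene in the 3 comparisons (horizontal axis, log2), as deposited (black) and with each sample centred on its median (orange). Bars are standard errors and dotted lines the median of all loci tested. Differences of PLM from SNI run from -1.95 for Slc1a2 to -0.57 for Slc38a3, while SNI differences from JA have wide errors.

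SNI versus JA asks what the nerve injury did without the drugs. It shares the SNI samples with the comparison that chose the genes as higher there, so the members' values are not independent of that choice. None of the 7 genes passed the test, with limma's adjusted p at 0.614 for 6 of them and 0.958 for Slc38a3. The differences, SNI minus JA on log2(TPM + 1), were 0.82 (SE 0.45) for Slc1a2, 0.80 (SE 0.42) for Slc7a10, 0.42 (SE 0.22) for Slc1a3, 0.39 (SE 0.18) for Slc1a4, 0.37 (SE 0.22) for Glud1, 0.26 (SE 0.15) for Glul and 0.03 (SE 0.24) for Slc38a3. Of 15557 loci, limma called 0 (0%), with 1104 at an unadjusted p under 0.05, of which 0 were members. Without JA replicate 1, 5 of 7 members had an unadjusted p under 0.05, as did 2763 of 15524 loci. With the replicate number as a block it was 3 of 7 members and 1978 of 15557 loci, and no member was called in either fit. The median of the 7 differences was 0.39 and that of all loci 0.12, and 0 of 7 were below 0, beside 23.6% of loci. On centred values the median was 0.27 and 1 of 7 was below 0, beside 51.4% of loci. In the same comparison the astrocyte markers had a median of 0.49, the neuron markers 0.31 and the Schwann cell markers 0.54 as deposited, with 0 of 20, 0 of 16 and 0 of 8 called by limma, and their part in the members' differences was not tested. Every SNI sample was above every JA sample for 1 of 7 members, Glul, and for 12.1% of loci as deposited, and for 0 of 7 members and 623 of 15557 loci on centred values. Centred values left Slc1a2 at 0.70 (SE 0.42) and put Slc38a3 at -0.09 (SE 0.22). Without JA replicate 3 the difference of Slc1a2 was 0.30, of Slc7a10 0.33, of Slc1a4 0.24, of Slc1a3 0.21, of Glud1 0.11, of Glul 0.09 and of Slc38a3 -0.27. Without JA replicate 1 that of Slc1a2 was 1.28, so the size of any effect of the injury on these genes rests on which JA rats are taken.

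PLM versus JA compares treated injured rats with rats that had no nerve injury. It shares the JA samples with the comparison above and the PLM samples with the one that chose the genes. All 7 members were below JA, at -1.12 (SE 0.47) for Slc1a2, -0.93 (SE 0.46) for Slc7a10, -0.71 (SE 0.20) for Slc1a3, -0.57 (SE 0.21) for Glud1, -0.54 (SE 0.24) for Slc38a3, -0.48 (SE 0.17) for Slc1a4 and -0.32 (SE 0.16) for Glul. None was called, with limma's adjusted p from 0.344 (Slc1a3) to 0.493 (Slc7a10), beside 3 of 15349 loci (0.0195%). At an unadjusted p under 0.05, limma had 4 of 7 members lower (Slc1a3, Slc1a4, Glud1 and Slc1a2), as were 10.5% of all loci. In both directions together, 1809 loci had such a p. Other settings moved both numbers, to 2 members beside 1532 loci centred, 6 beside 2158 with all 9 samples fitted and 6 beside 1419 with the replicate number as a block. Without JA replicate 3 it was 7 members beside 3027 loci, without JA replicate 1 it was 1 beside 1604, and without JA replicate 2 it was 1 beside 1251. With PLM replicate 1, 2 or 3 left out there were 2, 1 and 2 members beside 974, 991 and 1477 loci. The median of the members was -0.57 and that of all loci -0.10, and 71.2% of loci were below 0. On centred values the 7 were again below JA, from -0.998 for Slc1a2 to -0.20 for Glul, where 43.7% of loci were, and 0 of 7 were called beside 0.0130% of loci. Of the astrocyte markers 20 of 20 were below JA too (median -0.86 as deposited and -0.74 centred), while the neuron markers had a median of 0.26 as deposited and 0.38 centred, with 0 of 20 and 0 of 16 called by limma. Their part in the members' differences was not tested. Every PLM sample lay below every JA sample for 2 of 7, Slc1a3 and Slc1a4, and for 15.7% of loci. Without JA replicate 3 the differences lay between -1.65 (Slc1a2) and -0.50 (Glul), and again none was called, with limma's adjusted p from 0.0536 to 0.142. A level of these genes in PLM below that of sham rats is thus seen in the means and was not past the threshold.

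Ratios within a sample do not depend on how that sample was scaled. The ratio of Slc1a2 to Slc1a3 was 0.900, 0.682 and 0.392 in JA, 0.857, 0.725 and 0.945 in SNI and 0.588, 0.462 and 0.343 in PLM. GLT-1 transcripts were thus lower relative to GLAST transcripts in every PLM sample than in any SNI sample, by -0.89 on the log2 scale. For the ratio of Slc38a3 to Glul, PLM minus SNI was -0.00 on that scale with a pooled SD of 0.12. The ratio of Slc1a2 to Slc7a10 differed by -0.24, about the spread between samples (pooled SD 0.23).

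A second set of ratios took the mean log2 level of 20 other astrocyte markers as the denominator. PLM minus SNI was -0.75 for Slc1a2 and -0.51 for Slc7a10, with pooled SDs of 0.17 and 0.31. With the median of the markers as the denominator in place of their mean, these were -0.53 and -0.30. For Slc1a3 the value was 0.13 (pooled SD 0.14), and it was 0.35 with the median. For Slc1a4 (0.29), Glud1 (0.37), Slc38a3 (0.71) and Glul (0.71) the ratio was higher in PLM. Against JA, in 24 tests over 12 ratios, the smallest two-sided exact permutation p was 0.1, which is the least that 3 against 3 samples can give, and the smallest adjusted p was 0.554. That p of 0.1 was reached for Slc38a3 to the markers in SNI versus JA and, in PLM versus JA, for Glul and Glud1 to the markers and for Slc1a3 to Glul by the same exact test.

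**Figure D3:**
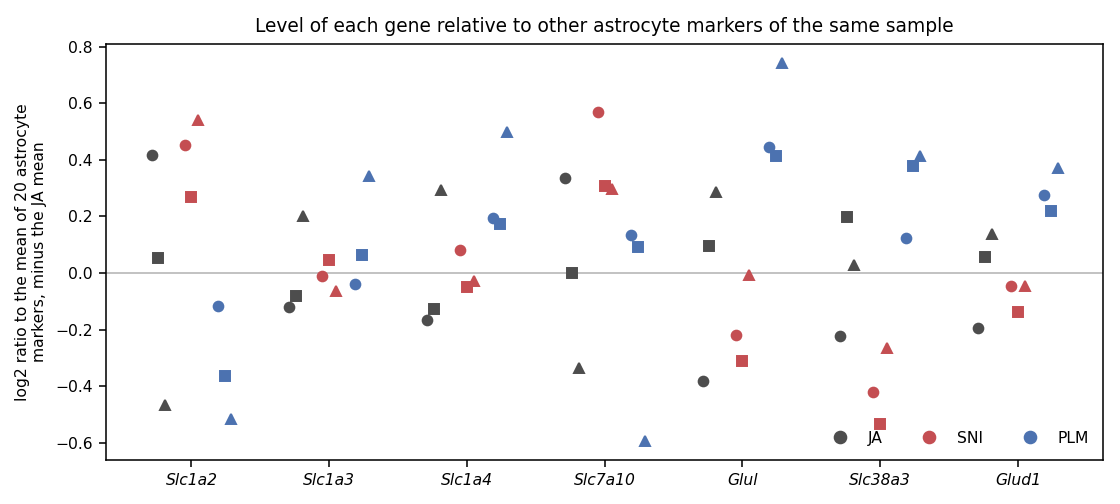
Log2 ratio of each gene's TPM to the mean of 20 astrocyte markers in the same sample, with the JA mean subtracted (vertical axis, log2), for JA, SNI and PLM. Points are samples and shapes are replicates 1 (circle), 2 (square) and 3 (triangle). PLM points lie below SNI points for Slc1a2 and Slc7a10 and above them for Slc1a4, Glul, Slc38a3 and Glud1.

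The pattern over the 9 samples divided the genes further. Likeness was taken as the root mean square difference of centred log2 values after removal of each gene's mean, where 0 is an identical pattern, and is a description over samples that share their groups. Slc1a2 and Slc7a10 differed by 0.182, and of 9035 genes with a mean of at least 5 TPM only 2 were closer to Slc1a2 and 3 to Slc7a10. Glud1 was near Slc1a4 (0.111) and Slc1a3 (0.130), and Slc1a3 near Slc1a4 (0.137). Glul was about as near to Slc38a3 (0.164) as to Slc1a4 (0.168) and Glud1 (0.183), with 984 candidates nearer than Slc38a3, and far from Slc1a2 (0.673). The median difference of all candidates was 0.855 from Slc1a2 and 0.242 from Glul, so a small value for Glul is common among genes that vary little.

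Outside the 7, Slc6a11, the GABA carrier GAT-3, was nearest to both Slc1a2 (0.118) and Slc7a10 (0.132). Gjb6, the gap junction protein connexin 30, came next for both (0.134 and 0.167), and Igsf1 followed for Slc1a2 (0.197). Slc1a3 was nearest to Sdc3 (0.0713), Myorg (0.0760) and Slc41a1 (0.0769), Glud1 to Ampd3 (0.0567), Zhx3 (0.0753) and Baalc (0.0761), and Slc1a4 to Plxnb1 (0.0680), Adgrg1 (0.0736) and Serpine2 (0.0799). The nearest genes to Glul were Hadhb (0.0673), St6galnac4 (0.0711) and Ddx17 (0.0737), and those to Slc38a3 were Mfhas1 (0.0923), Iqsec1 (0.0940) and Hey2 (0.0966).

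**Figure D4:**
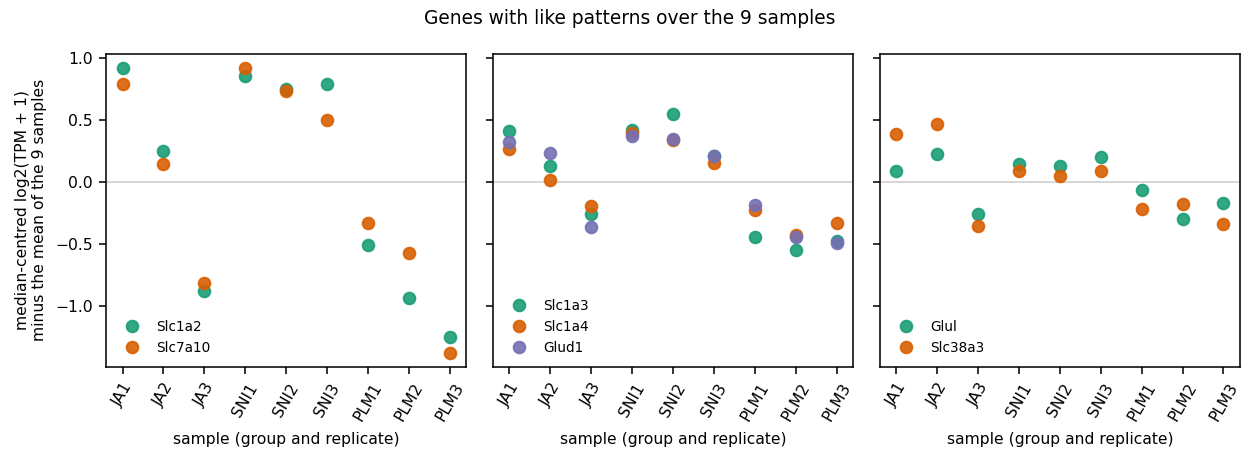
Median-centred log2(TPM + 1) minus the gene's mean over the 9 samples (vertical axis, log2) for each sample, with the genes placed in 3 panels for reading. Points are single samples. Slc1a2 and Slc7a10 run together over a wide range, the other 5 genes over narrower ones, and Glul varies least.

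Other genes of glutamate and GABA handling were followed in 5 lists, of which 34 genes were tested in PLM versus SNI. As deposited, limma called 11 of 34 lower and 0 higher, beside 13.6% of all loci lower, and on centred values 5 of 34 lower, beside 0.685%. The median difference of the 34 genes was -0.28 against -0.21 over all loci, and -0.03 against 0.04 centred. Of 8 genes that make, carry or break down GABA, 5 fell as deposited and 3 centred. Slc6a11, which takes GABA up into astrocytes, fell by 1.80 on the log2 scale (SE 0.17, limma adjusted p = 0.00541), with a mean of 70.9 ± 9.97 TPM in the SNI samples against 19.8 ± 4.21 in the PLM samples and 46.3 ± 26.7 in the JA samples (SD). Its centred difference was -1.55 (limma adjusted p = 0.0317). Abat, the GABA transaminase, fell by 1.01 (limma adjusted p = 0.00497), and centred by 0.76 (limma adjusted p = 0.0292), but was not called with all 9 samples in 1 fit.

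Of 8 genes of glutamate metabolism, 3 fell as deposited and 2 centred, and the proline enzymes written in the same list were not found by name. Slc25a18, a mitochondrial glutamate carrier, fell by 1.27 (limma adjusted p = 0.00752), and centred by 1.02 (limma adjusted p = 0.0479). The alanine transaminase Gpt fell by 1.08 as deposited (limma adjusted p = 0.0195) and was at -0.83 centred, where it was not called (limma adjusted p = 0.111). Gpt2, its mitochondrial form, named after its values were seen, fell by 0.78 (limma adjusted p = 0.00477), and centred by 0.53 (limma adjusted p = 0.0317). In each of the other 3 lists 1 gene fell as deposited and 0 centred: of 5 other glutamate transporters, of 6 genes of the neuronal glutamate cycle and of 7 other glutamine carriers. Beside these counts, 13.6% of all loci were called lower as deposited and 0.685% centred.

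Genes known from neurons, named here after their values were seen, differed in size. Slc38a1, a glutamine carrier in the list of the neuronal glutamate cycle, fell by 0.48 as deposited (limma adjusted p = 0.0283) and was at -0.23 centred, where it was not called (limma adjusted p = 0.202). Slc17a6, the vesicular glutamate carrier VGLUT2, was at -0.27 as deposited (limma adjusted p = 0.0990) and -0.03 centred. Gls2, which turns glutamine back into glutamate, was at -0.14 as deposited and at 0.11 centred. Gad1, which makes GABA from glutamate, was at -0.06 as deposited (limma adjusted p = 0.654) and 0.18 centred. Slc1a1, the neuronal glutamate carrier EAAC1, was at -0.39 as deposited (limma adjusted p = 0.0609) and -0.14 centred. In SNI versus JA and in PLM versus JA, limma called 0 of the 34 genes.

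**Figure D5:**
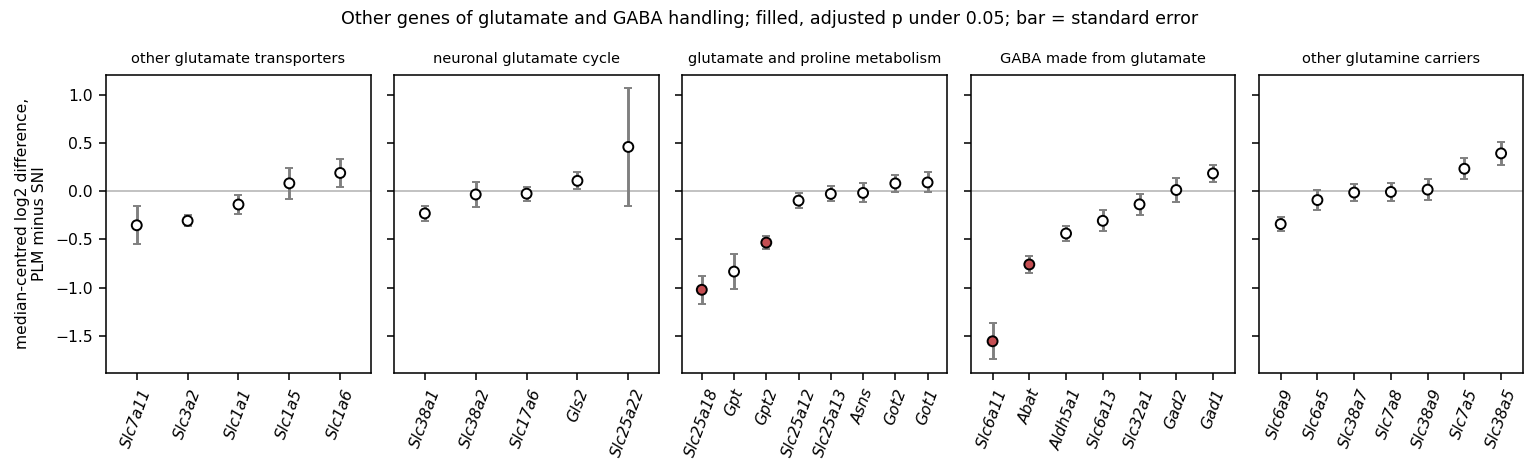
Median-centred log2 difference, PLM minus SNI (vertical axis), for other genes of glutamate and GABA handling in 5 lists, with standard errors, where 2 of the 34 genes tested, 1 of them called lower in the GABA list, are not drawn. Filled points have an adjusted p under 0.05 in limma. The filled points drawn are Slc25a18, Gpt2, Slc6a11 and Abat, and Gls2 and Slc17a6 lie close to 0.

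Markers of astrocytes were lower in PLM along with the 7 genes. Of 20 astrocyte markers that are not members, 18 fell in PLM versus SNI as deposited (median -1.36) and 12 centred (median -1.11). Over all loci 13.6% were called lower as deposited and 0.685% centred, and the medians were -0.21 and 0.04. The list was written with lower astrocyte genes in PLM already known, so these counts are a description. Gfap, the astrocyte filament protein, was at 588 ± 28.3 TPM in SNI and 241 ± 22.1 in PLM, and Aldh1l1, a folate enzyme, at 19.6 ± 1.29 and 8.52 ± 1.10 (SD, n = 3), and both were called on both scales. The water channel Aqp4 was at 318 ± 64.6 and 137 ± 14.5 TPM and the calcium-binding protein S100b at 2739 ± 412 and 1730 ± 206 TPM (SD, n = 3), and both were called as deposited only. In JA, Gfap was at 607 ± 202 TPM, Aldh1l1 at 17.8 ± 5.51, Aqp4 at 276 ± 70.4 and S100b at 2674 ± 334 (SD, n = 3). The mean log2 level of the list was between 6.98 and 7.23 in SNI, 5.73 and 6.01 in PLM and 6.07 and 7.22 in JA, and no marker was at 0. In bulk tissue, fewer astrocytes and less RNA of these genes per astrocyte cannot be told apart.

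Of 16 neuron markers, 14 oligodendrocyte, 6 precursor, 7 endothelial, 7 ependymal and 8 Schwann cell markers tested in PLM versus SNI, limma called 0 on either scale, and of 13 microglia markers 1 fell as deposited and 0 centred. The centred medians were 0.02 for neuron, 0.14 for oligodendrocyte, 0.05 for precursor, 0.35 for endothelial, 0.09 for ependymal, -0.41 for Schwann cell and 0.26 for microglia markers. On centred values the 3 PLM samples were above the 3 SNI samples for 5 of 7 endothelial, 8 of 14 oligodendrocyte, 7 of 13 microglia and 2 of 16 neuron markers, as for 14.1% of loci. As deposited this held for 0 of 7 endothelial, 1 of 14 oligodendrocyte, 0 of 13 microglia and 0 of 16 neuron markers, as for 1.59% of loci. The Schwann cell markers spread from 4.06 to 6.48 in mean log2 level over the SNI samples and from 3.25 to 6.17 over the PLM samples.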

How the data were processed

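Total RNA of 9 samples was sequenced by the authors, who removed adaptors and low-quality reads (fastp, 0.19.5 in the submitters' processing notes), mapped the rest with HISAT2 and computed expression with StringTie. These notes name the human build GRCh38.p13 although the identifiers are rat, so the build used is unclear. The authors deposited 1 table of TPM values per locus, which keeps no read depth, so counting error is unknown and count models were not used. Groups follow the labels, and p-values measure the spread between the 3 samples of a group.

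Pairs of groups were fitted with limma 3.58.1 (R 4.3.3) on log2 values after a pseudocount of 1 was added to TPM, with a variance trend and without covariates. Loci averaging under 1 TPM in the 6 samples of a fit were left out, with Benjamini-Hochberg adjustment over the rest. A call is an adjusted p under 0.05. The fit was tested on simulated data. Ratios of TPM were compared by exact two-sided permutation of samples.

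The members, the gene lists and the tests were chosen with earlier results of these data known, including the lower astrocyte genes in PLM. Named genes are the members, for each the 3 genes most like it, the called list genes with an absolute log2 difference above 0.5 (at most 4 per comparison and scaling) and 4 astrocyte markers. A few genes under this rule are not reported here, and genes outside it are said to be named after their values were seen. Of 134 list genes written, 129 were found. Motifs were searched on both strands. Beside those spelled out with the results, the TATA box was searched as TATAAA, the cyclic AMP response element (CRE) as TGACGTCA, the motif bound by AP-1 as TGANTCA, the motif bound by STAT factors as TTCNNNGAA, and the NF-kB, NFI and glucocorticoid motifs by their usual consensus. Matches did not overlap in the windows shown. Alternatives were centring, rescaling without mitochondrial genes, a pseudocount of 0.1, no filter or a mean of 5 TPM, all 9 samples in 1 fit, the replicate number as a block, the study's thresholds (unadjusted p under 0.05 and absolute log2 difference above 1) and each sample left out. Counts of the other pathway genes under these alternatives were added after seeing the data.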

Additional observations from a re-analysis of the deposited data

How the results depend on the processing

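Of 196 alternative values for the 7 genes in SNI versus JA and PLM versus JA, 192 kept their direction and stayed uncalled. Slc38a3 in SNI versus JA reversed when centred (to -0.087), when rescaled without mitochondrial genes (to -0.053) and without JA replicate 3 (-0.27, with a range from -0.27 to 0.19 over samples left out). Slc1a2 in PLM versus JA passed the study's thresholds, so 1 member was then called. All 98 values in PLM versus SNI stayed below 0, and 7 members called became 3 centred, 4 with all 9 samples fitted, 4 with the replicate block and 3 at the study's thresholds, and 6 to 7 with a sample left out. Loci called in SNI versus JA went from 0 to 1 without a filter, 107 at the study's thresholds and 1 to 8 with a sample left out. Those in PLM versus JA went from 3 to 5 with a pseudocount of 0.1, to 1 without a filter, with all 9 samples or with the replicate block, to 144 at the study's thresholds and to 3 to 22 with a sample left out (22 without JA replicate 3). Those in PLM versus SNI went from 2148 to 126 centred, 283 rescaled, 1258 without a filter, 471 with all 9 samples, 152 with the replicate block, 255 at the study's thresholds and 275 to 1494 with a sample left out (275 without PLM replicate 2). The other pathway genes called there went from 11 to 5 centred, 6 with the replicate block, 4 at the study's thresholds and 7 to 10 with a sample left out (7 without PLM replicate 2). With all 9 samples fitted Abat was no longer called. Same-numbered samples of different groups correlated between -0.05 and 0.13, and differently numbered ones between -0.19 and 0.14. With 3 samples per group these values cannot decide whether replicate numbers pair the samples. With the median of the astrocyte markers as denominator, the PLM minus SNI ratios were -0.53 for Slc1a2, 0.35 for Slc1a3, 0.93 for Glul and Slc38a3, 0.58 for Glud1 and 0.51 for Slc1a4, and the other 267 of 273 ratio values stayed within 1 SD. The cause was not tested for any of these. Read depth is unknown, so no limit from counting can be given.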
